A study of Mus musculus with 26 samples.

Results

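The genes described here encode the receptors for glutamate, GABA, glycine and acetylcholine. They were taken by symbol from the protein-coding genes of the count table: ionotropic glutamate receptor subunits (Gria, Grik, Grin), metabotropic glutamate receptors (Grm), GABA-A and GABA-B receptor subunits (Gabr, Gabbr), glycine receptor subunits (Glra, Glrb), nicotinic acetylcholine receptor subunits (Chrn) and muscarinic receptors (Chrm). The choice gave 70 genes of 56941 in the table, of which 21606 were protein-coding. RNA had been sequenced from neuron spheroids. Their source was HBG3, mouse embryonic stem cells with GFP under the Hb9 promoter; Hb9 (Mnx1) is a regulator of motor neuron identity. Every library thus came from this 1 line, which was expanded on a feeder layer, differentiated with puromorphamine and retinoic acid and then with ciliary and glial neurotrophic factors, and plated on fibrin at about day 8. The 5 groups were spheroids on a magnetic silicone array moved at 4 Hz for 30 min each day (actuated array, 4 libraries), spheroids on the same array left still (static array, 4), spheroids in groups labelled high intensity (6) and low intensity (6) of biochemical stimulation, and biochemical controls (6). The design text mentions medium conditioned by muscle that was or was not stimulated by light, and the sample names it uses are matched to the 2 intensities nowhere in the labels. The labels do not say that libraries of a group came from separate cultures, so p-values measure only the spread between these samples.

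Fast excitation in the spinal cord runs mainly through glutamate at AMPA, kainate and NMDA receptors, each built of 4 subunits, while metabotropic glutamate receptors act through G proteins. GABA-A and glycine receptors are chloride channels of 5 subunits that carry fast inhibition, and GABA-B receptors are G-protein-coupled dimers of the products of Gabbr1 and Gabbr2. Nicotinic receptors are cation channels opened by acetylcholine, and their subunits divide into neuronal types and the types that form the receptor of the neuromuscular junction. Muscarinic receptors answer acetylcholine through G proteins. Which subunits a cell makes sets the speed, conductance and pharmacology of its receptors.

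The RefSeq table of promoters (build GRCm38.p6), with windows from 250 bases before to 50 bases after the start of a gene, held 51 of the 70 genes. Windows are printed for 2 classes, in each case for a subunit with ample RNA and for one with a median of 0, because the number of CG dinucleotides in the window went with whether the median level of a receptor gene was above 0. Grin1, the obligatory NMDA subunit, and Chrna4, a neuronal nicotinic alpha subunit, stand beside Grin3b, an NMDA subunit, and Chrng, a subunit of the fetal muscle nicotinic receptor. Capitals mark CG, which reads the same on both strands.
Grin1 promoter, chr2:25319138-25319437, minus strand: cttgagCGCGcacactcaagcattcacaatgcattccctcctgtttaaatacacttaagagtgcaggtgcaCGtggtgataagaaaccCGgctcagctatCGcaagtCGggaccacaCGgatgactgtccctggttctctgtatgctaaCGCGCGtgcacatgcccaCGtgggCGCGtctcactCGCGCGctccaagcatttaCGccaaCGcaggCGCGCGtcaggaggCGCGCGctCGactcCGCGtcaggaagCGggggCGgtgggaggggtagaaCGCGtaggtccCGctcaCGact
Grin3b promoter, chr10:79970474-79970773, plus strand: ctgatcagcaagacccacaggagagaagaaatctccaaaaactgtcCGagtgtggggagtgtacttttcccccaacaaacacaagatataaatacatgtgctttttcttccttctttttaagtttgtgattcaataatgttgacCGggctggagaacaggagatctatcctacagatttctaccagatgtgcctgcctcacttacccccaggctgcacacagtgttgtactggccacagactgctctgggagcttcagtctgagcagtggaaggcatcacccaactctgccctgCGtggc
Chrna4 promoter, chr2:181039128-181039427, minus strand: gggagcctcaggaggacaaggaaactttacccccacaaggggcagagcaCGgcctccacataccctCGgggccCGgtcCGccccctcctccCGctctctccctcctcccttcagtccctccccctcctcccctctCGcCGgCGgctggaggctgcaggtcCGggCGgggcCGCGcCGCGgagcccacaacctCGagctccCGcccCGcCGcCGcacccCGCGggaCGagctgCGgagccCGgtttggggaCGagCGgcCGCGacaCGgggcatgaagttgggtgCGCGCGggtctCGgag
Chrng promoter, chr1:87205561-87205860, plus strand: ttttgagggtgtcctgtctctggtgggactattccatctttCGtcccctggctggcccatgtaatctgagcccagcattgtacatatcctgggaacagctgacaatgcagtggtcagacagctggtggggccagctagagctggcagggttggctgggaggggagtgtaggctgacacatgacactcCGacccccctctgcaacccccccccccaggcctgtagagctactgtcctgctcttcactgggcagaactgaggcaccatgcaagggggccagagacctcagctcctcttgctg
The windows of Grin1 and Chrna4 each held 33 CG, that of Grin3b held 3 and that of Chrng held 2. These 4 were picked with their levels known, and the counts describe the letters of the windows only.

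Depth differed between the arms. Of 26 libraries, 5 had fewer than 1000000 counts on protein-coding genes (control 4, high intensity 4 and 5, low intensity 6, static array 3) and were left out of all values below unless stated, which left 5 controls, 4 high-intensity, 5 low-intensity, 3 static and 4 actuated libraries. Their totals ran from 1551334 to 3971348 counts in the biochemical arm and from 7269276 to 13162635 on the arrays, so that a gene without a count could be present at up to 1.93 counts per 1000000 (CPM; 3 counts of the total) in the shallowest library and 0.228 in the deepest. The markers of neurons and of motor neurons were present, with medians of 389 transcripts per 1000000 (TPM) for Tubb3, 3.92 for Mnx1, 4.03 for Isl1, 3.87 for Chat and 360 for Prph. Lhx3 and Isl2 were low, at 0.785 and 0.246 TPM. Glial RNA was also abundant, with Gfap at 882 and Fabp7 at 760 TPM, so the receptor values are those of a mixed culture. In such bulk libraries fewer cells of a type and less RNA per cell cannot be told apart.

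Receptor genes took a small share of the RNA. Their counts made up 0.278% to 0.361% of the protein-coding counts in the controls, 0.235% to 0.346% at high intensity, 0.257% to 0.341% at low intensity, 0.305% to 0.342% on the static array and 0.324% to 0.332% on the actuated array. The ranges of all 5 groups overlapped. In TPM, which divides by transcript length and allows genes to be compared with each other, the 70 genes summed to a median of 661 (333 to 944) per library. A median of at least 1 TPM was found for 44 of the 70 (62.9%), against 58.2% of all protein-coding genes, and of at least 10 TPM for 18. Counts were found for 47 to 60 of the genes per library, and 1, Gabra6, an alpha subunit known from cerebellar granule cells, had no count in any of the 21 libraries.

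**Figure D1:**
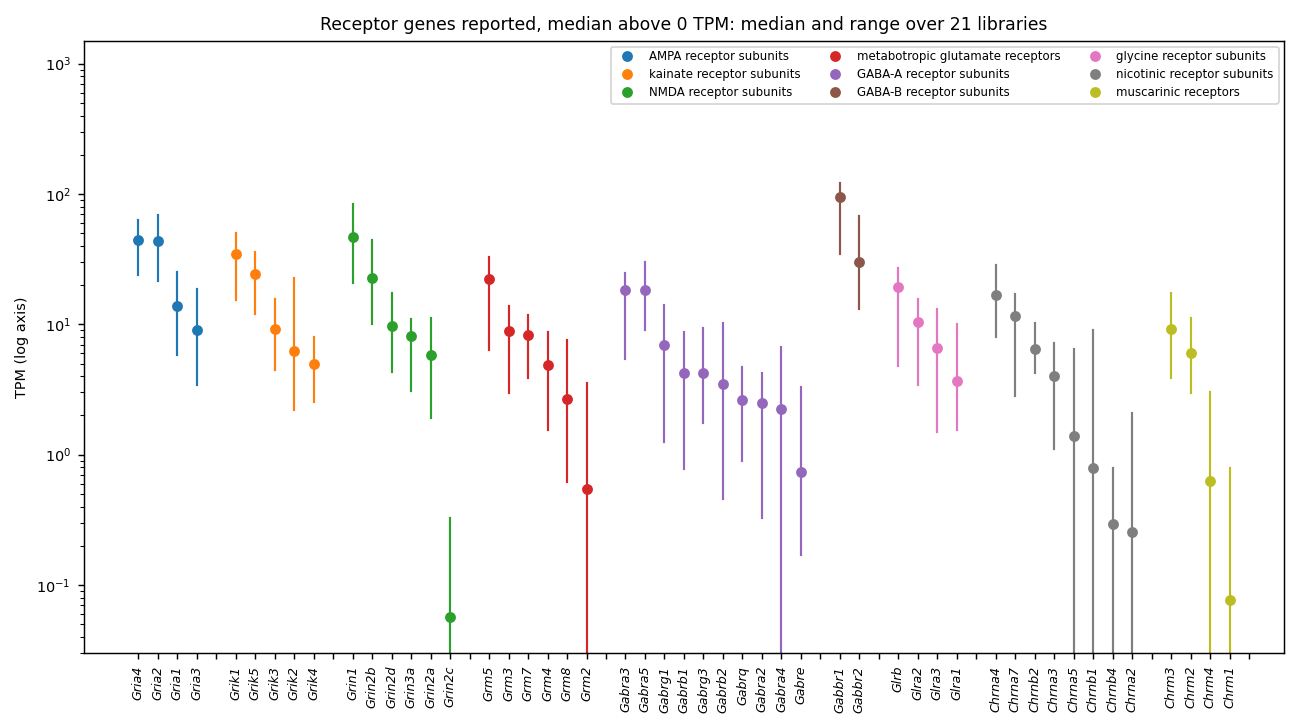
Median TPM (log axis) of the receptor genes reported here whose median was above 0, with lines from the lowest to the highest of 21 libraries; lines that reach the bottom end at 0. Gabbr1, at 95.1 TPM, stands above all other receptor genes, and the lowest gene drawn is Grin2c, at 0.0566 TPM.

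Summed by transmitter, glutamate receptors took a median of 49.2% of the receptor TPM (41.2% to 56.3%), GABA receptors 36.0% (30.8% to 40.6%), acetylcholine receptors 9.09% (7.38% to 10.8%) and glycine receptors 5.75% (2.91% to 8.66%). The order glutamate, GABA, acetylcholine, glycine held for the median of every group. For glutamate the group medians were 49.9% in the controls, 51.7% at high intensity, 47.9% at low intensity, 48.7% on the static array and 48.02% on the actuated array, and the ranges of the libraries overlapped between all groups. Glycine receptors had a median of 4.57% in the controls and between 5.94% and 6.55% in the other groups. Control 2 stood apart from the other libraries: NMDA subunits took 26.5% of its receptor TPM (11.1% to 17.2% in the rest), muscarinic receptors 5.33% and glycine receptors 2.91%. No receptor gene passed in any comparison below with control 2 or without it (edgeR, adjusted p), so this number cannot show what that library did. Without it the number of all genes passing between high intensity and control went from 68 to 18. Receptor genes under an unadjusted edgeR p of 0.05 there went from 9 to 11, and the share of all genes was not computed.

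**Figure D2:**
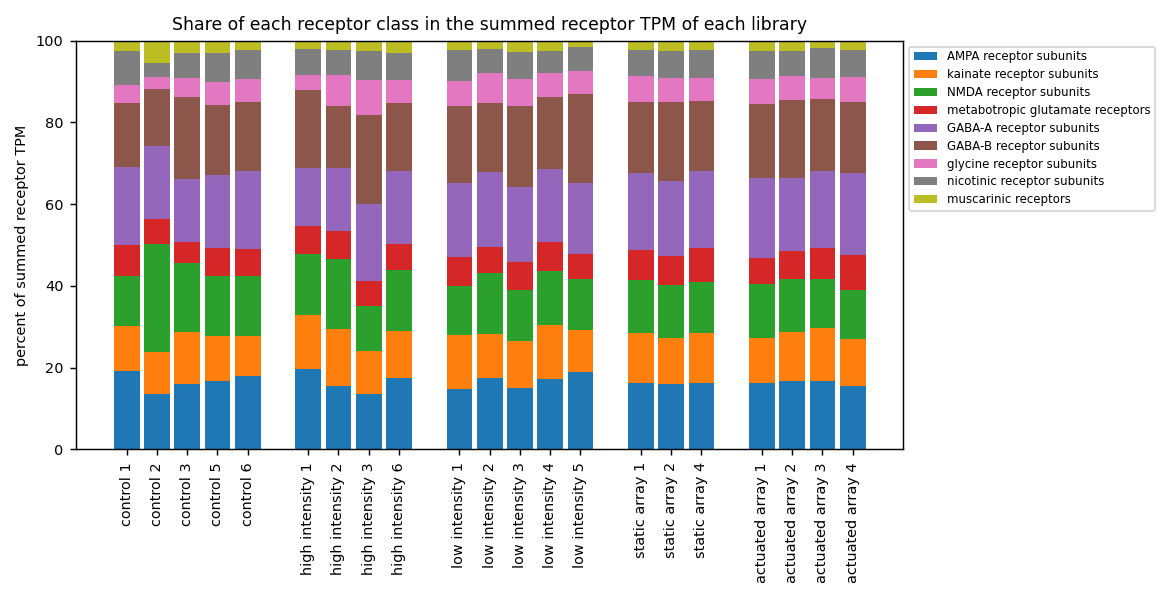
Percent of the summed receptor TPM taken by each of 9 receptor classes in each of 21 libraries, ordered by group. The bands are of similar height throughout, and control 2 shows the widest NMDA band, 26.5%.

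The 4 AMPA receptor subunits were all expressed and together took 16.3% of the receptor TPM. Over the 21 libraries Gria2, whose edited product keeps calcium out of the channel, had a median of 40.9% of the AMPA level (33.5% to 52.5%). Gria4, a subunit of fast channels, had 39.2% (29.0% to 50.0%). Those 2 ranges overlapped, and the pooled medians of 43.7 (Gria2) and 44.1 TPM (Gria4) did not differ beyond the spread of the libraries. The order differed between groups. Gria2 had medians of 41.9%, 42.6% and 42.5% in the controls, at high and at low intensity, and Gria4 39.2%, 35.6% and 35.4%. On the static and actuated arrays Gria4 had the higher medians, 42.3% and 41.7%, against 38.9% and 38.1% for Gria2. Gria1 took 12.4% and Gria3 7.45%. In CPM scaled between libraries by TMM, Gria2 was at 179 ± 26.9 CPM (SD, n = 5) in the controls, 155 ± 41.3 (n = 4) at high intensity, 152 ± 23.0 (n = 5) at low intensity, 158 ± 9.67 (n = 3) on the static array and 163 ± 14.8 (n = 4) on the actuated array. Over all 5 comparisons the log2 fold changes of the 4 subunits stayed between -0.32 and 0.36.

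Kainate receptor subunits took 11.6% of the receptor TPM and all 5 were above 1 TPM in the median. Grik1, a subunit that forms channels on its own, made up 41.9% of the class, and Grik5, which needs such a partner, 29.6%. Grik3 followed with 12.4%, Grik2 with 8.00% and Grik4, a second partner subunit, with 6.22%. Grik5 was at 65.0 ± 11.2 CPM in the controls, 69.5 ± 15.2 at high intensity, 63.0 ± 14.8 at low intensity, 72.0 ± 2.71 on the static array and 75.1 ± 4.96 on the actuated array (SD, n = 5, 4, 5, 3 and 4).

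Of the 7 NMDA receptor subunits 5 were above 1 TPM. Grin1, present in every NMDA receptor, took 49.9% of the class level at a median of 46.5 TPM. Among the 4 Grin2 genes, whose products bind glutamate and set the channel's kinetics, Grin2b took 58.6% (46.4% to 78.9%), Grin2d 27.1% (10.8% to 40.5%) and Grin2a 13.0% (7.45% to 23.1%). Grin2b and Grin2d are the forms known to prevail before birth, and Grin2a and Grin2c are known to increase later. Grin2c had 39 counts in the 21 libraries together and 0.146% of the Grin2 level. Grin3a, whose product binds glycine and lowers calcium entry, was at 8.09 TPM, whereas its relative Grin3b had 8 counts in all. Counts not divided by length give another order, because the Grin2b transcripts are long: Grin2b had the most counts of all receptor genes, 34605, and yet was ninth by TPM.

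Metabotropic glutamate receptors took 6.83% of the receptor TPM. Grm5, which couples to Gq and is known from neurons and immature astrocytes, made up 43.1% of the class, Grm3, which couples to Gi, 18.9%, and Grm7, a presynaptic autoreceptor, 17.4%. Grm5 had a median of 22.4 TPM. Grm6, the receptor of retinal ON bipolar cells, had 6 counts in all. Grm5 was at 78.4 ± 21.8 CPM (SD, n = 5) in the controls and at 108 ± 14.0 (n = 3) and 107 ± 24.0 (n = 4) on the static and actuated arrays. At high intensity it was at 84.5, 102, 60.1 and 87.6 CPM, and at low intensity at 90.7, 86.1, 109, 86.6 and 67.7. Control 1, at 114 CPM, lay within the values of both arrays. The arrays and the controls also differed in platform, arm and depth.

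For GABA-A receptors, 12 of 19 subunit genes were above 1 TPM in the median and the class took 18.4% of the receptor TPM. The beta subunits made up 40.1% of the class level (31.7% to 47.1%), the alpha subunits 36.8% (31.7% to 43.2%) and the gamma subunits, which bring the receptor to synapses, 20.5% (15.7% to 28.3%). The remaining subunits (delta, epsilon, pi, theta and rho) made up 3.13%. Gabra3 had 18.4 TPM and Gabra5 18.2. Both are alpha subunits known from the immature nervous system. The rho subunits, known from the retina, had 6 (Gabrr1), 4 (Gabrr2) and 14 (Gabrr3) counts in all. Values of Gabra4, Gabra5 and Gabrb1 are uncertain in part, since these genes overlap others in the RefSeq annotation and the use of strand in counting is not given in the sources used here.

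The highest level of any receptor gene was that of a GABA-B subunit. Gabbr1 had 95.1 TPM (34.9 to 121) and Gabbr2, its signalling partner, 30.2 TPM (13.1 to 67.7), so that Gabbr1 made up 75.1% of the pair's level (61.6% to 81.3%). Gabbr1 was above Gabbr2 in each of the 21 libraries. In CPM, Gabbr1 was at 312 ± 57.8 in the controls, 257 ± 40.6 at high intensity, 269 ± 53.0 at low intensity, 325 ± 27.7 on the static array and 328 ± 11.3 on the actuated array (SD, n = 5, 4, 5, 3 and 4), and the ranges of the controls and each other group overlapped.

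Glycine receptor RNA came from 4 of 5 genes, Glra4 having 1 count in all. Glrb, the subunit that ties the receptor to gephyrin, had 19.5 TPM. Among the alpha subunits Glra2, the fetal form, took 50.2% (30.0% to 63.6%), Glra3 30.9% (10.5% to 48.2%) and Glra1, the form of the adult spinal cord, 18.9% (8.58% to 34.4%). The share of Glra2 was 49.2% in the median control and 55.2% and 54.6% on the static and actuated arrays, with overlapping ranges. Glrb varied most among the controls, where it was at 33.6, 17.2, 23.1, 60.8 and 45.5 CPM, and the 16 libraries of the other groups lay between 30.0 and 50.9 CPM.

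Acetylcholine receptors were mostly of neuronal types. Nicotinic subunits took 6.51% of the receptor TPM, with Chrna4 at 38.1% of the class, Chrna7, which forms channels of its own, at 26.9%, Chrnb2, the usual partner of Chrna4, at 14.0% and Chrna3 at 8.61%. Values of Chrna5 and Chrna3 are uncertain in part, since the genes overlap. Of the subunits of the muscle receptor, Chrnb1 had 103 counts (0.797 TPM in the median), Chrng 8, Chrne 7 and Chrnd 3. Rapsn, which anchors that receptor at the endplate, and Musk, another of its partners, both had a median of 0 TPM. Among muscarinic receptors Chrm3, which couples to Gq, made up 57.5% of the level and Chrm2, which couples to Gi, 34.1%; Chrm1, Chrm4 and Chrm5 were below 1 TPM in the median.

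The CG content of the promoter window was set beside these levels for the 51 genes with a window. Where a gene had several windows the one with the most CG was used, here and for all protein-coding genes. At least 10 CG were found in 28 of 32 genes with a median of 1 TPM or more (87.5%), in 6 of 6 with a median between 0 and 1, and in 0 of 13 with a median of 0, whose windows held 1 to 9 CG. Among all protein-coding genes the shares were 89.2%, 54.8% and 13.5%. At any level, at least 10 CG were found in 66.7% of the 51 receptor genes and in 65.1% of 15661 protein-coding genes. The whole set of 32851 windows gave 43.5%, but it counts every window of a gene and is not comparable with these shares. The exceptions among expressed receptor genes were Gabra3 with 0 CG at 18.4 TPM, Gabrg1 with 3 at 6.88 TPM, Glra3 with 8 at 6.59 TPM and Glra2 with 9 at 10.4 TPM. Within the expressed genes the number did not order the levels, as Grik3 with 50 CG had 9.18 TPM and Gabbr1 with 18 CG had 95.1.

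**Figure D3:**
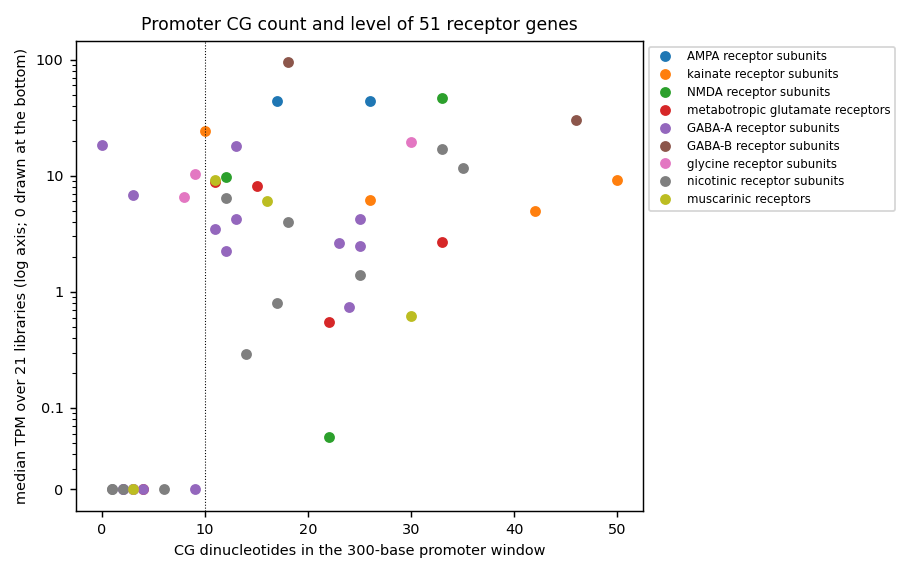
Number of CG dinucleotides in the 300-base promoter window against the median TPM over 21 libraries (log axis, with 0 drawn at the bottom) for 51 receptor genes, coloured by class; the dotted line stands at 10 CG. All 13 genes at 0 lie to the left of the line, with 1 to 9 CG.

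For the comparisons between groups, edgeR's quasi-likelihood test was run on 14730 genes that passed a filter on low counts. It kept 48 of the receptor genes: 4 AMPA, 5 kainate, 5 NMDA, 7 metabotropic, 13 GABA-A, 2 GABA-B, 4 glycine, 6 nicotinic and 2 muscarinic. The other 22 were too low to be tested. With Benjamini-Hochberg adjustment over all genes tested and a threshold of 0.05, 0 of the 48 passed in any of the 5 comparisons, and DESeq2 and limma voom also passed 0 in each. How far this joint fit bounds a change is given by its 95% intervals of the log2 fold change. They lay within -1 and 1, a factor of 2 either way, for 37 receptor genes between actuated and static array. The number was 34 between high intensity and control, 35 between low intensity and control, 38 between the intensities and 35 between static array and control. The joint fit shares 1 estimate of the spread over all 5 groups, so its intervals do not follow the spread of each group. Fitted on only the 2 groups compared, edgeR put 2 receptor genes under an unadjusted p of 0.05 at high intensity and 5 at low intensity. The joint fit put 9 there in each. Intervals of those smaller fits were not computed.

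**Figure D4:**
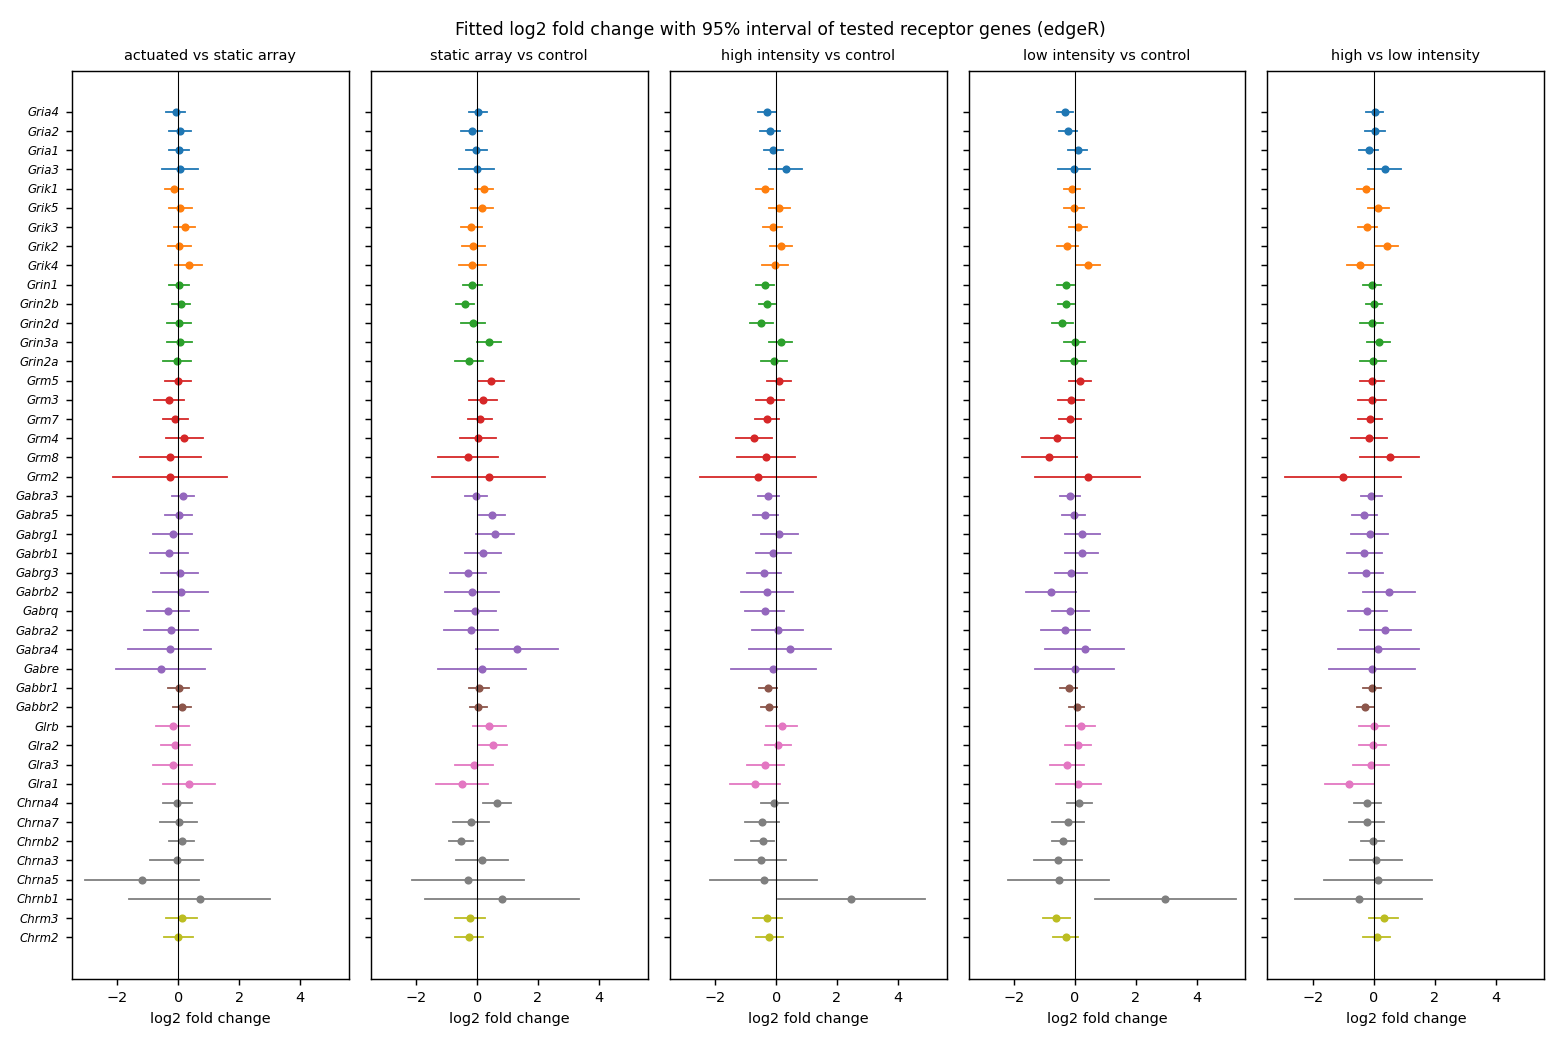
Fitted log2 fold change (points) with its 95% interval (lines) of tested receptor genes in 5 comparisons, coloured by class and ordered by median TPM within a class. Most points lie within 1 of 0; the widest intervals belong to low genes such as Chrnb1, Grm2 and Chrna5.

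The first comparison asks what daily movement of the array did, set against the still array. No receptor gene passed (background 0.0% of 14730 genes called), and at an unadjusted p under 0.05 edgeR found 0 receptor genes against 0.380% of all genes. A calibrated test would put a share of 0.05 of the genes there even if none differed. The joint fit was thus conservative in this comparison, and its 0 does not show that the receptor genes were unchanged. Fitted on the array libraries alone edgeR found 4 of 49, limma voom found 5 of 48, and leaving out actuated replicate 1 gave 1. The shares of all genes in these other fits were not computed, so these counts cannot be set against the 0.380%. Of the 48 fold changes 25 were positive and 23 negative, with a median of 0.01. The AMPA subunits lay between -0.09 and 0.05 and the NMDA subunits between -0.05 and 0.09 on the log2 scale. The general neuron, motor neuron, astrocyte, oligodendrocyte and fibroblast markers had medians of 0.05, 0.45, -0.10, -0.11 and -0.22, and 0 of them passed. Their part in the receptor values was not tested.

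Groups that did not overlap in CPM were found for 2 of the 48 genes, Grik4 and Grm3 (4.17%, against a background of 4.33% of all genes). Grik4 was at 15.0, 14.4 and 14.8 CPM on the static array and at 16.3, 19.8, 17.4 and 20.8 on the actuated array, with an estimated log2 difference of 0.34 and an SE of 0.22 (edgeR adjusted p = 1.00). Grm3 was at 30.4, 27.5 and 27.0 CPM on the static array and at 23.0, 23.2, 22.2 and 22.8 on the actuated array, with an estimated log2 difference of -0.31 and an SE of 0.23 (edgeR adjusted p = 1.00). In this conservative joint fit neither difference came near the threshold.

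The second comparison asks what the high-intensity stimulation did, set against the biochemical controls. No receptor gene passed, where 0.462% of all genes did. At an unadjusted edgeR p under 0.05 there were 9 receptor genes, or 18.75% of the 48, against a background of 15.9% of all genes. Of these 1 was higher (background 8.67%) and 8 were lower (background 7.28%). Single libraries moved the 9 to 5 (without high intensity 1, and without high intensity 2), 2 (without high intensity 3) and 18 (without high intensity 6). A fit of only these groups gave 2. The shares of all genes under 0.05 in these refits were not computed. Without high intensity 6 the number of all genes passing the adjusted threshold also rose, from 68 to 397. Fold changes were negative for 36 of the 48, with a median of -0.24 where that of all genes was 0.00. The sign depended on the scaling, whereas the place relative to all genes moved little, with 36 of the 48 below the median of all genes. In TPM, where the median of all genes moved to 0.53 at a pseudocount of 1, 39 of the 48 were positive; 37 of the 48 then lay below the median of all genes, and after centring each library on its median gene 37 were negative. On the uncentred TPM scale limma called 2324 genes, 2315 of them higher (45 of 68 in the counts), and 1 receptor gene, Glrb. Over the same libraries the protein-coding genes held a median of 37.1% of the TPM in the controls and 52.4% at high intensity.

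Glutamate receptor genes were 6 of those 8 lower genes and 21 of the 48 tested, a difference that was not tested. Grik1 was at 95.8, 94.97, 114, 101 and 108 CPM in the controls and at 88.8, 67.7, 69.1 and 89.0 at high intensity. All 4 high-intensity libraries lay below all 5 controls, as was so for 2 of the 48 receptor genes, the other being Glra1 (4.17%, against a background of 3.56% of all genes). The log2 fold change of Grik1 stood at -0.38 (SE 0.13, 95% interval -0.65 to -0.11, edgeR adjusted p = 0.154). In TPM its sign was positive, 0.28. Grin2d, an NMDA subunit with slow closing, was at 37.1, 63.1, 55.8, 35.6 and 52.2 CPM in the controls and at 29.5, 30.8, 36.4 and 43.0 at high intensity. The groups overlapped, and the log2 fold change stood at -0.48 (SE 0.18, edgeR adjusted p = 0.190). Grm4, a Gi-coupled presynaptic glutamate receptor, was at 13.2, 17.9, 15.8, 20.1 and 18.8 CPM in the controls and at 14.6, 6.49, 7.36 and 12.1 at high intensity. Here 1 high-intensity library lay among the controls, and the log2 fold change stood at -0.73 (SE 0.28, edgeR adjusted p = 0.197).

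Other genes under an unadjusted p of 0.05 were Grin1, Grin2b, Gria4 and Chrnb2, with log2 fold changes of -0.37, -0.30, -0.30 and -0.45, and Chrnb1 with 2.47; they were named after their values were seen. Grin1 was at 154, 188, 182, 151 and 172 CPM in the controls and at 117, 171, 87.5 and 148 at high intensity, so that the groups overlapped. Without high-intensity replicate 6, 1 of the receptor genes passed and the number of all genes passing was 397 (edgeR).

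Markers of cell types were compared in the same libraries. The 6 general neuron markers had a median log2 fold change of -0.25 between high intensity and control, the 7 fitted motor neuron markers -0.30 and the 5 fitted spinal interneuron markers -0.34, against -0.24 for the receptor genes. The 5 fibroblast markers had a median of 1.53. Astrocyte and oligodendrocyte markers, 5 each, had medians of -0.08 and 0.26, and 0 of them passed. None of the other 23 marker genes passed the adjusted threshold. Protein-coding genes held a median of 37.1% of the TPM in the controls and 52.4% at high intensity, so sums in TPM were shifted for protein-coding genes in general. Summed over each list, the neuron markers were at 702 to 1365 TPM in the controls and 770 to 2041 at high intensity. The fibroblast markers were at 47.1 to 149 and 177 to 519 TPM. Their part in the receptor values was not tested.

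The next comparison sets the low-intensity group against the same controls, so it shares its control libraries with the comparison at high intensity. No receptor gene passed, where 0.597% of all genes did. At an unadjusted edgeR p under 0.05 there were again 9 receptor genes, against a background of 15.2% of all genes. Of these 2 were higher (background 8.57%) and 7 were lower (background 6.61%). The 9 became 3 without low intensity 1 and 5 without low intensity 2, and a fit of only these groups gave 5. For these refits the shares of all genes were not computed. Fold changes were negative for 33 of the 48 with a median of -0.13. The median was -0.050 without control 5, -0.086 without control 6 and -0.076 without low intensity 5. In TPM, where the median of all genes moved to 0.64, 40 of the 48 were positive and 30 lay below that median. There limma called 5440 genes, 5423 of them higher (65 of 88 in the counts), and 14 receptor genes; after centring it called 0 receptor genes. The general neuron markers had a median of -0.21, the motor neuron markers -0.51, the interneuron markers -0.28, the astrocyte markers 0.03, the oligodendrocyte markers 0.45 and the fibroblast markers 0.82, with fibroblast sums of 64.5 to 622 TPM at low intensity, and 0 of them passed. Their part in the receptor values was not tested.

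Chrm3, the Gq-coupled muscarinic receptor, had the smallest p. It was at 19.0, 31.9, 17.7, 31.8 and 25.5 CPM in the controls and at 14.1, 17.6, 19.8, 20.2 and 11.2 at low intensity. The groups overlapped in their middle, and the log2 fold change stood at -0.61 (SE 0.22, 95% interval -1.06 to -0.16, edgeR adjusted p = 0.167). Gria4 was at 153, 142, 103, 113 and 147 CPM in the controls and at 88.3, 102, 120, 123 and 95.6 at low intensity, which overlapped, with an estimated log2 difference of -0.32 and an SE of 0.13 (edgeR adjusted p = 0.227). In TPM the sign of Gria4 was positive, 0.41.

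Chrnb1, the beta subunit of the muscle nicotinic receptor, was the 1 of the 48 receptor genes whose groups did not overlap (2.08%, against a background of 2.25% of all genes). It was at 0, 0, 1.15, 0 and 0.290 CPM in the controls and at 3.04, 2.996, 2.38, 1.26 and 2.04 at low intensity. These are few reads: 4 counts in the 5 controls and 34 counts in the 5 low-intensity libraries. The log2 fold change stood at 2.97 (SE 1.12, 95% interval 0.65 to 5.29, edgeR adjusted p = 0.191), a fitted value that depends on the prior count. Its other groups were low as well, with 2.27, 0.405, 4.09 and 0 CPM at high intensity, 0.565, 0.372 and 0.616 on the static array and 1.70, 1.22, 0.110 and 0.366 on the actuated array. The partner subunits Chrnd, Chrng and Chrne had 1, 2 and 0 counts at low intensity. Skeletal muscle markers summed to 0 to 4.94 TPM in the controls and 0 to 6.77 at low intensity, with Myod1, Myog, Actc1 and Ckm at a median of 0 over all libraries. Myod1, the 1 of these 6 markers that was tested, was listed at 0 in all 5 controls and reached 2.08 TPM at high and 2.30 TPM at low intensity. Its fitted differences from the controls, 6.16 and 5.03 on the log2 scale, depend on the prior count and did not pass (edgeR adjusted p = 0.165 and 0.286), and its part in the values of Chrnb1 was not tested.

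Side by side, genes under an unadjusted p of 0.05 in either biochemical comparison had the following log2 fold changes at high and at low intensity. Grin1 had -0.37 and -0.31. Grin2b had -0.30 in both. Grin2d had -0.48 and -0.41. Grm4 had -0.73 and -0.58. Gria4 had -0.30 and -0.32, and Chrnb2 had -0.45 and -0.40. Grik1 had -0.38 and -0.11, Chrm3 -0.29 and -0.61, and Grik4 -0.04 and 0.42. Chrnb1, on few counts, had 2.47 and 2.97. The shared controls enter both values of each pair.

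**Figure D5:**
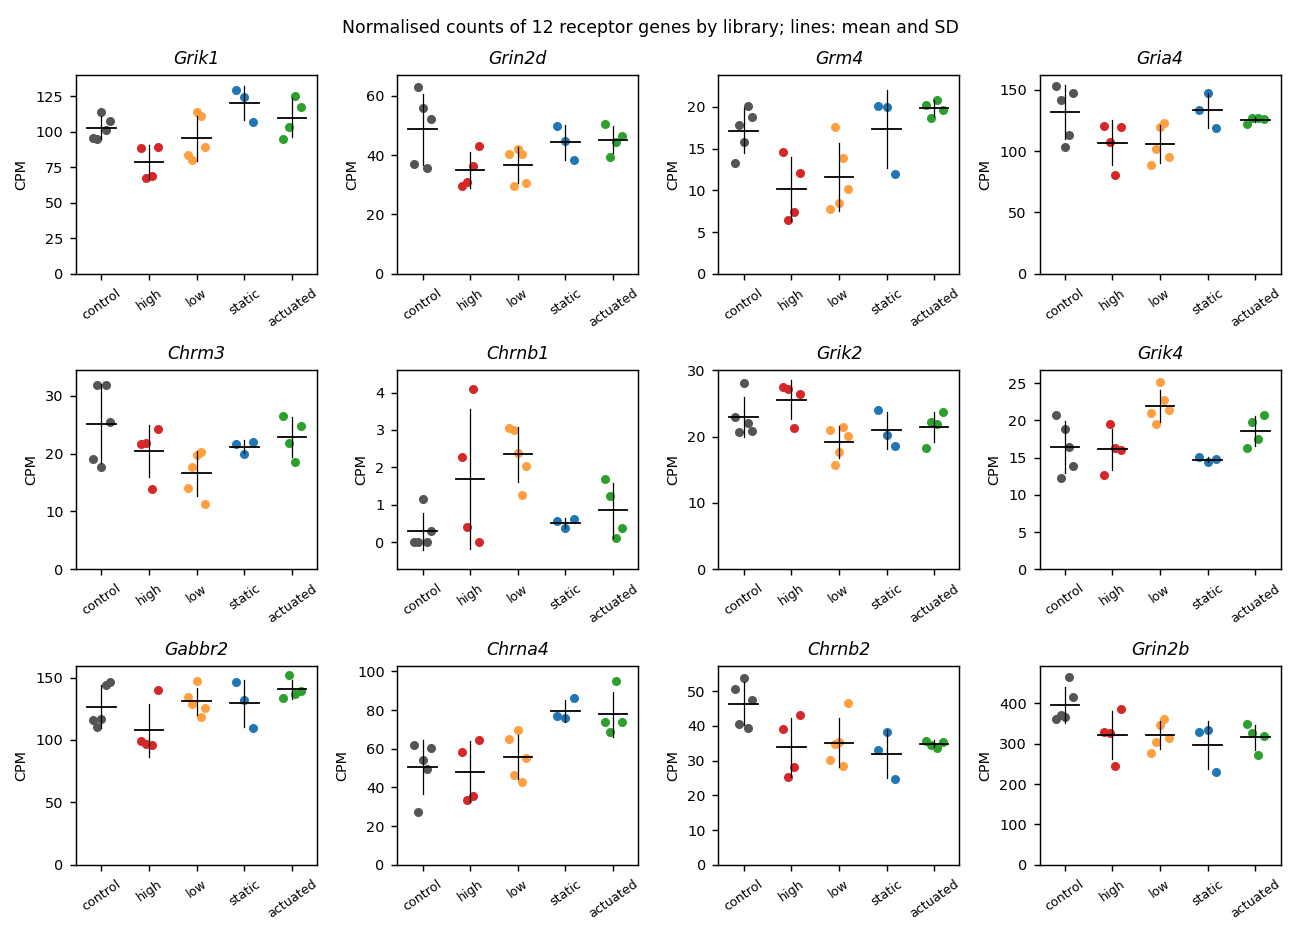
CPM scaled by TMM of 12 receptor genes in each library (points) of the 5 groups, with the mean (horizontal line) and SD (vertical line); n = 5, 4, 5, 3 and 4. The panels show the overlap of groups for genes such as Grin2d and Chrm3 and the separation of Grik1 at high intensity from the controls; Chrnb1 stays below 5 CPM in every library.

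The fourth comparison asks whether the intensities differed from each other. The controls are in neither group but enter the joint fit. No receptor gene passed (background 0.0%), and at an unadjusted edgeR p under 0.05 there were 3 receptor genes (6.25% of the 48, against a background of 7.68%). Of these 1 was higher at high intensity (background 3.62%) and 2 were lower (background 4.06%). The 3 became 1 without high intensity 1 or low intensity 3, 5 without static 4, 6 without high intensity 6, and 1 in a fit of only these groups. For these refits the shares of all genes were not computed. Grik2, a kainate subunit, was at 27.5, 27.2, 21.3 and 26.4 CPM at high intensity and at 21.03, 15.7, 17.7, 21.5 and 20.1 at low intensity, with an estimated log2 difference of 0.42 and an SE of 0.18 (edgeR adjusted p = 0.606). Grik4 was at 12.6, 19.5, 16.4 and 16.0 CPM at high intensity and at 21.03, 19.5, 25.2, 22.8 and 21.4 at low intensity, with an estimated log2 difference of -0.45 and an SE of 0.20 (edgeR adjusted p = 0.612). It was the 1 receptor gene without overlap (2.08%, against a background of 2.63% of all genes), and the nearest values of the 2 groups were equal when rounded. Gabbr2 was at 99.1, 96.5, 96.1 and 140 CPM at high intensity and at 135, 129, 147, 118 and 126 at low intensity, with an estimated log2 difference of -0.28 and an SE of 0.13 (edgeR adjusted p = 0.620). Its highest value at high intensity, in replicate 6, lay inside the low-intensity range.

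The fifth comparison sets the static array against the biochemical controls, which differ in platform and arm and in depth, and these cannot be told apart. No receptor gene passed, where 0.713% of all genes did. At an unadjusted edgeR p under 0.05 there were 6 receptor genes (12.5% of the 48, against a background of 12.6%). Of these 4 were higher on the static array (background 6.10%) and 2 were lower (background 6.46%). The 6 became 3 without control 3, and 3 without static 4, and the shares of all genes in these refits were not computed. Markers of glia were also compared. Oligodendrocyte markers summed to 24.3 to 47.7 TPM in the controls and 110 to 239 TPM on the static array, with a median log2 fold change in counts of 1.86, and astrocyte markers to 692 to 1500 and 2104 to 2672 TPM, with a median of 0.48. The sums of the 2 groups did not overlap in either list, and 0 of 5 markers passed in each. Protein-coding genes held a median of 37.1% of the TPM in the controls and 53.0% on the static array. Sums in TPM were thus shifted between these groups for protein-coding genes in general. How often other lists fail to overlap was not computed. General neuron markers had a median of 0.02, motor neuron markers -0.29 (1 of 7, Slc5a7, passed), interneuron markers -0.39 and fibroblast markers -0.39. The part of these cells in the receptor values was not tested. Chrna4 was at 62.1, 27.3, 54.2, 49.6 and 60.3 CPM in the controls and at 76.8, 75.7 and 86.2 on the static array. All 3 static libraries lay above all 5 controls, and the log2 fold change stood at 0.65 (SE 0.22, 95% interval 0.19 to 1.10, edgeR adjusted p = 0.186). On the actuated array, which shares arm and platform with the static array, Chrna4 stood at 73.6, 68.8, 94.9 and 73.8 CPM. Without the filter on low counts the edgeR adjusted p of Chrna4 was 0.0129, in TPM with limma 0.0311, and in TPM after centring 0.364.

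For its partner Chrnb2 the fitted difference had the opposite sign. It was at 50.6, 40.7, 53.8, 39.3 and 47.5 CPM in the controls and at 33.0, 38.3 and 24.7 on the static array, with an estimated log2 difference of -0.53 and an SE of 0.20 (edgeR adjusted p = 0.219). Grin2b was at 362, 371, 365, 466 and 416 CPM in the controls and at 329, 334 and 229 on the static array, with an estimated log2 difference of -0.41 and an SE of 0.15 (edgeR adjusted p = 0.198). Chrna4, Chrnb2 and Grin2b were among 4 of the 48 genes without overlap (8.33%, against a background of 8.14% of all genes). Grm5, Glra2 and Gabra5, named after their values were seen, had log2 fold changes of 0.46, 0.51 and 0.48 with edgeR adjusted p-values of 0.318, 0.325 and 0.307. Of all 48 fold changes 24 were positive and 24 negative, and in TPM, where the median of all genes moved to 0.50, 43 were positive. There limma called 1091 genes, 1087 of them higher (44 of 105 in the counts), and 3 receptor genes, Gabrg1, Chrna4 and Gabra5; after centring it called 0 receptor genes.

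The genes that work beside the receptors gave a similar picture. None of the 14 AMPA and kainate auxiliary subunits, 17 excitatory scaffold genes, 7 inhibitory scaffold genes and partners, 6 fitted of 9 nicotinic chaperones and partners, and 2 chloride transporters passed in any comparison with edgeR. Their medians between high intensity and control were -0.33, -0.22, -0.34, 0.05 and -0.33, against -0.24 for the receptor genes. Cacng4, a TARP that carries AMPA receptors to the surface, had 78.2 TPM and its relative Cacng3 47.9. Dlg4, the scaffold PSD-95, had 104 TPM and Dlgap4 89.4, Gabarap had 111, Ly6h, a modulator of nicotinic receptors, had 76.7 and Lrp4, a receptor of agrin, 28.0. Slc12a5, the chloride extruder KCC2 that makes GABA inhibitory, had 119 TPM and Slc12a2, the importer NKCC1, 19.3.

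Of 11 genes for transmitter synthesis and vesicle loading, 9 were fitted and 1 passed. Slc5a7, the choline transporter of cholinergic terminals, was at 2.54 to 7.25 TPM in the controls and at 1.05 to 4.75 TPM on the static array, with a log2 fold change in counts of -1.88 (SE 0.32, edgeR adjusted p = 0.00392), and thus fell. Slc18a3, the vesicular acetylcholine transporter, had 27.1 TPM and Slc17a6, the vesicular glutamate transporter VGLUT2, 26.6. With Slc32a1, the vesicular transporter of GABA and glycine, at 26.05 TPM, the loading proteins of all 4 transmitters were detected at the RNA level.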

How the data were processed

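Libraries were made with a low-input total RNA kit that removes ribosomal fragments, and read as 50-base pairs, per the labels' protocols. The authors deposited estimated counts per gene, written as whole numbers and not scaled for depth, and TPM values (transcripts per 1000000), which sum to that number in each library, as the files show. The submitters' processing notes name STAR, Salmon, BWA 0.7.12-r1039 and bedtools 2.25.0 and the builds mm10, hg19 and GRCm39, with no role or order. The annotation release was not given in the sources used here, nor was the strand setting.

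From the estimated counts, edgeR 4.0.16 (R 4.3.3) fitted 21 libraries with 1 coefficient per group after filterByExpr (14730 genes) and TMM scaling. The quasi-likelihood F-test was adjusted by Benjamini-Hochberg over all genes per comparison, with a threshold of 0.05. TPM values served to compare genes within libraries and as an alternative scale. No molecular identifiers are mentioned, so limits from counts cover counting error only. All 325 pairs of libraries differed by more than sampling noise (chi-square per degree of freedom 4.74 to 646), and each was kept as a replicate. Limits of detection are 3 counts of a library's total. Promoter windows and gene overlaps came from RefSeq tables (GRCm38.p6), and files and tables were joined by gene symbol.

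The members, lists, tests and alternatives were chosen with earlier results of these data known. Named genes are those passing the adjusted threshold, the 3 of smallest p per comparison, and the 2 of highest median TPM per class and per companion list. Some genes of these sets are not reported here by name, but enter all counts. Other names were chosen after their values were seen. Alternatives were other filters, normalisations, tests (DESeq2 1.42.0, limma 3.58.1), units and samples, a replicate block, thinning, and leaving out each library. The 3 pluripotent cell markers were too low to be tested (sums of 0 to 4.48 TPM).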

Additional observations from a re-analysis of the deposited data

Results flagged for a closer look

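Among 92 sets of 4 or 5 libraries (23 named genes in the 4 groups of at least 4 libraries), 5 had a single library whose gap to the nearest other exceeded Dixon's 95% limit, and chance flags about 1 in 20. Chrnb1 was at 1.15 CPM in control 3, with the other controls between 0 and 0.290. Gabbr2 was at 140 CPM (139.7) in high-intensity replicate 6, against 96.1 to 99.1 in the other libraries of its group. Gabra3 was at 44.1 CPM in the same library, against 36.1 to 37.2. Gria4 was at 122 CPM (122.3) in actuated replicate 1, against 127 in each of the others. Grik2 was at 21.3 CPM in high-intensity replicate 3, against 26.4 to 27.5.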

How the results depend on the processing

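The number of receptor genes passing the adjusted threshold, 0 in every comparison, was 0 under all alternatives run except these: 1, 14 and 3 genes at high intensity, at low intensity and on the static array, each against control, with limma on log2(TPM + 1), and 1, 15 and 4 with log2(TPM + 0.1); 1 on the static array (Chrna4) without the filter on low counts; and 1 at high intensity without high-intensity replicate 6. On the same 2 TPM scales 2 named genes reversed: Grik1 at high intensity (0.28 and 0.29) and Gria4 at low intensity (0.41 and 0.42). These scales moved the median of all genes, and after centring no named gene reversed. Over all alternatives, named genes kept direction and side of the threshold in 461 values, reversed in 4 and passed in 5 (Chrnb1 at low intensity, Chrna4 on the static array). On centred TPM the adjusted p-values of Chrnb1 and Chrna4 were 0.353 and 0.364 with limma. The 461 values include refits without a library of a group not compared, which enters a comparison only through the joint fit. No named gene passed in the main analysis, so to keep its side was to stay above the threshold.

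The number of all genes passing is given for high intensity, low intensity and static array against control, where the main values were 68, 88 and 105. It was 6, 4 and 2 with all 26 libraries, 700, 660 and 459 without the filter, 466, 470 and 380 with DESeq2, 17, 21 and 42 with only the groups compared, 2324, 5440 and 1091 with log2(TPM + 1), and 2292, 5537 and 1145 with log2(TPM + 0.1). With limma voom it was 0, 1 and 151, thinning gave 30 at high intensity, and centred TPM gave 2 at high intensity and 17 on the static array. Actuated against static array gave 40 without the filter and 2 with DESeq2, and high against low intensity gave 126, 41, 2, 1 and 7 without the filter, with DESeq2, with both TPM scales and with centred TPM; both were 0 in the main analysis. Leaving out a library of any group gave 0 to 397 genes for high intensity (highest without high-intensity replicate 6), 2 to 264 for low intensity (lowest without low-intensity replicate 1, highest without replicate 3), 18 to 141 for the static array (lowest without static replicate 4, highest without control 6), 0 to 3 between intensities and 0 to 0 between arrays. The causes were not tested.

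A replicate block gave 2, 8 and 36 genes and 0 receptor genes. At an unadjusted edgeR p under 0.05 it gave 2 receptor genes in place of 9 at low intensity, with a median of -0.058. With the block the share of all genes under 0.05 was not computed. Same-numbered libraries correlated between -0.22 and 0.18 in their deviations, so the numbers were not taken to pair them. By CPM in place of TPM, AMPA, GABA-A, NMDA, glycine and nicotinic genes took 14.7%, 16.3%, 24.1%, 3.99% and 5.40% of the receptor level, since CPM does not divide by length. Depth limits the low genes most: the 22 untested receptor genes and those with wide intervals, such as Chrnb1, Grm2 and Chrna5, are not bounded by these data.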
